A study of Mus musculus with 8 samples.

Results

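Forkhead (Fox) transcription factors were read in RNA-seq libraries of mouse haemogenic endothelium, the endothelium from which the first blood cells bud. The members are the protein-coding genes whose symbol is Fox followed by a class letter from a to s and a number. There are 44 such genes among the 41128 genes of the count table, on 16 chromosomes, and 21 of them had enough reads to be tested, among 14179 genes tested in all. The cells were derived from C57BL/6 embryonic stem cells by differentiation in culture. One line carries lox sites at both copies of Hdac1 (Hdac1 lox/lox) and the other at both copies of Hdac2 (Hdac2 lox/lox), which encode class I histone deacetylases. Libraries of both lines carry the label 4OHT (4-hydroxytamoxifen, widely used to switch on a tamoxifen-dependent Cre recombinase) or the label EtOH (ethanol, its solvent), which gives 4 groups of 2 libraries. The design text names deletion of Hdac1 or Hdac2, so 4OHT against EtOH within a line asks what goes with the deletion. The sources used here do not name the Cre, the deleted exons, the number of clones or whether replicates were separate cultures, so p-values measure only the spread between these libraries, which may be technical. Cells that lack lox sites but received 4OHT were not analysed here.

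Totals ran from 10215792 to 19552380 counts per library, so that 3 counts correspond to 0.150 to 0.287 CPM (TMM-scaled CPM, the usual count relative to library size and the scale of every level below unless it is given per kb). The counts of the targeted genes do not check the labels. Hdac2 in the Hdac2 line differed by -0.08 ± 0.14 (log2 fold change ± SE, adjusted p = 0.67), and Hdac1 in the Hdac1 line by 0.31 ± 0.23 (adjusted p = 0.84). EtOH and 4OHT are therefore used as labels of the libraries. In the Hdac1 line, EtOH replicate 2 and 4OHT replicate 1 were the most alike libraries (correlation of log CPM over 14179 genes 0.987), while the EtOH replicates correlated at 0.968 and the 4OHT replicates at 0.976. Exchanged labels and crossed batches cannot be told apart from the files, groups were kept as labelled, and every result of the Hdac1 line rests on that. Defining endothelial genes were present in every library: 12 markers summed to 2961 to 8184 CPM. In bulk RNA, fewer cells of a type and less RNA per cell cannot be told apart.

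Forkhead proteins share a winged-helix DNA-binding domain in which one helix, the recognition helix, lies in the major groove of DNA. Class letters group relatives: FoxO proteins are held out of the nucleus when insulin and growth factor signalling through AKT is active, FoxM1 drives genes of mitosis, FoxC and FoxF act in mesoderm, endothelium and mesenchyme, and FoxA proteins are pioneer factors of the endoderm. FoxH1 carries Nodal and activin signals through SMAD proteins, and FoxP and FoxK proteins often act as repressors together with deacetylase-containing corepressors.

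The family can be recognised in the coding sequence itself. The stretches below hold 30 bases coding for the recognition helix, from the GENCODE M21 transcripts (mm10), 5′ to 3′ on the coding strand, with the 15 bases of its most conserved part in capitals. They are shown because this is the feature that defines the family, and because it shows how close some of the pairs compared below are to each other.

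Foxo3, chr10:42197872-42197901 (-): aactccatcCGGCACAACCTGTCCctgcac
Foxo4, chrX:101258177-101258206 (+): aactccatcCGTCACAACCTGTCCttgcac
Foxk1, chr5:142451439-142451468 (+): aactctatcCGACACAACCTCTCTcttaac
Foxk2, chr11:121296029-121296058 (+): aattcaattCGCCACAATCTCTCTctgaac
Foxp4, chr17:47871322-47871351 (-): aatgccgtgCGCCACAACCTCAGCctgcac
Foxc1, chr13:31807577-31807606 (+): aacagcataCGGCACAACCTCTCGctcaac
Foxc2, chr8:121116963-121116992 (+): aacagcatcCGCCACAACCTGTCActcaat
Foxf1, chr8:121084678-121084707 (+): aactccgtgCGCCACAACCTGTCGctcaac
Foxf2, chr13:31626515-31626544 (+): aactccgtgCGCCACAACCTCTCGctcaac
Foxm1, chr6:128370957-128370986 (+): aactctattCGTCACAACCTTTCTctccat
Foxh1, chr15:76669244-76669273 (-): gactccatcCGCCACAACCTTTCCtctaat
Foxa2, chr2:148044252-148044281 (-): aactccatcCGCCACTCTCTCTCCttcaac

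The search found this stretch in 42 of the 44 genes and in all 21 tested, and it was not found in Foxr1 and Foxr2. Over the 210 pairs of tested genes a median of 21 of 30 bases were identical, with a range of 13 to 30 (Foxf2 and Foxq1). Pairs of one class had a median of 24 identical bases and other pairs 21. Foxo3 and Foxo4 share 28 bases, Foxf1 and Foxf2 share 29 and Foxc1 and Foxc2 share 25. Over whole transcripts, the longest run of bases shared exactly by 2 tested genes was 53 (Foxc1 and Foxc2), then 41 (Foxf1 and Foxf2), with a median of 14 over all pairs. The sources used here do not say how reads that map to several genes were treated.

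The levels spanned a wide range. Per kb of exon, which allows genes to be compared, Foxk2 was highest at a mean of 41.3 CPM per kb over the 8 libraries, followed by Foxh1 at 32.0, Foxo4 at 22.1, Foxm1 at 21.5 and Foxo3 at 16.7. The order of the first pair differed by group, with Foxh1 above Foxk2 in Hdac2 EtOH (47.2 against 35.8 CPM per kb) and below it in the other groups. Over all libraries the ranges of Foxo4 and Foxm1 overlapped, with 14.8 to 26.9 and 12.8 to 28.6 CPM per kb, but their order also differed by group. Foxo4 was above Foxm1 in Hdac2 EtOH (22.9 against 14.2 CPM per kb) and below it in Hdac2 4OHT (15.3 against 24.2). Foxk1 (11.9), Foxn2 (10.6) and Foxo1 (8.94) came next, and their ranges overlapped (6.32 to 17.9, 7.14 to 13.6 and 5.70 to 13.8 CPM per kb). Foxp4, Foxj2, Foxf1, Foxj3, Foxc2, Foxn3, Foxp1, Foxc1 and Foxa2 had means from 5.97 down to 1.03 CPM per kb. Foxf2, Foxq1, Foxj1 and Foxp2 were tested but low, at 0.345 down to 0.0903 CPM per kb.

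The other 23 genes stayed under the filter on low counts. Foxb1, Foxb2, Foxd3, Foxd4, Foxe3, Foxi1 and Foxi2 were among those with 0 counts in all 8 libraries, which allows up to 3 counts, or 0.150 to 0.287 CPM, in each. The 15 with counts (Foxa1, Foxa3, Foxd1, Foxd2, Foxe1, Foxi3, Foxl1, Foxl2, Foxn1, Foxn4, Foxo6, Foxp3, Foxr1, Foxr2 and Foxs1) reached at most 17 counts in a library, for Foxd1 in Hdac2 lox/lox EtOH replicate 1, and a total of at most 27. Among these 23 are Foxn1 of the thymic epithelium and Foxp3 of regulatory T cells, which are markers of other tissues. The 44 genes together made up 796 to 1214 CPM per library. Foxk2 alone held 179.9 to 259 CPM.

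**Figure D1:**
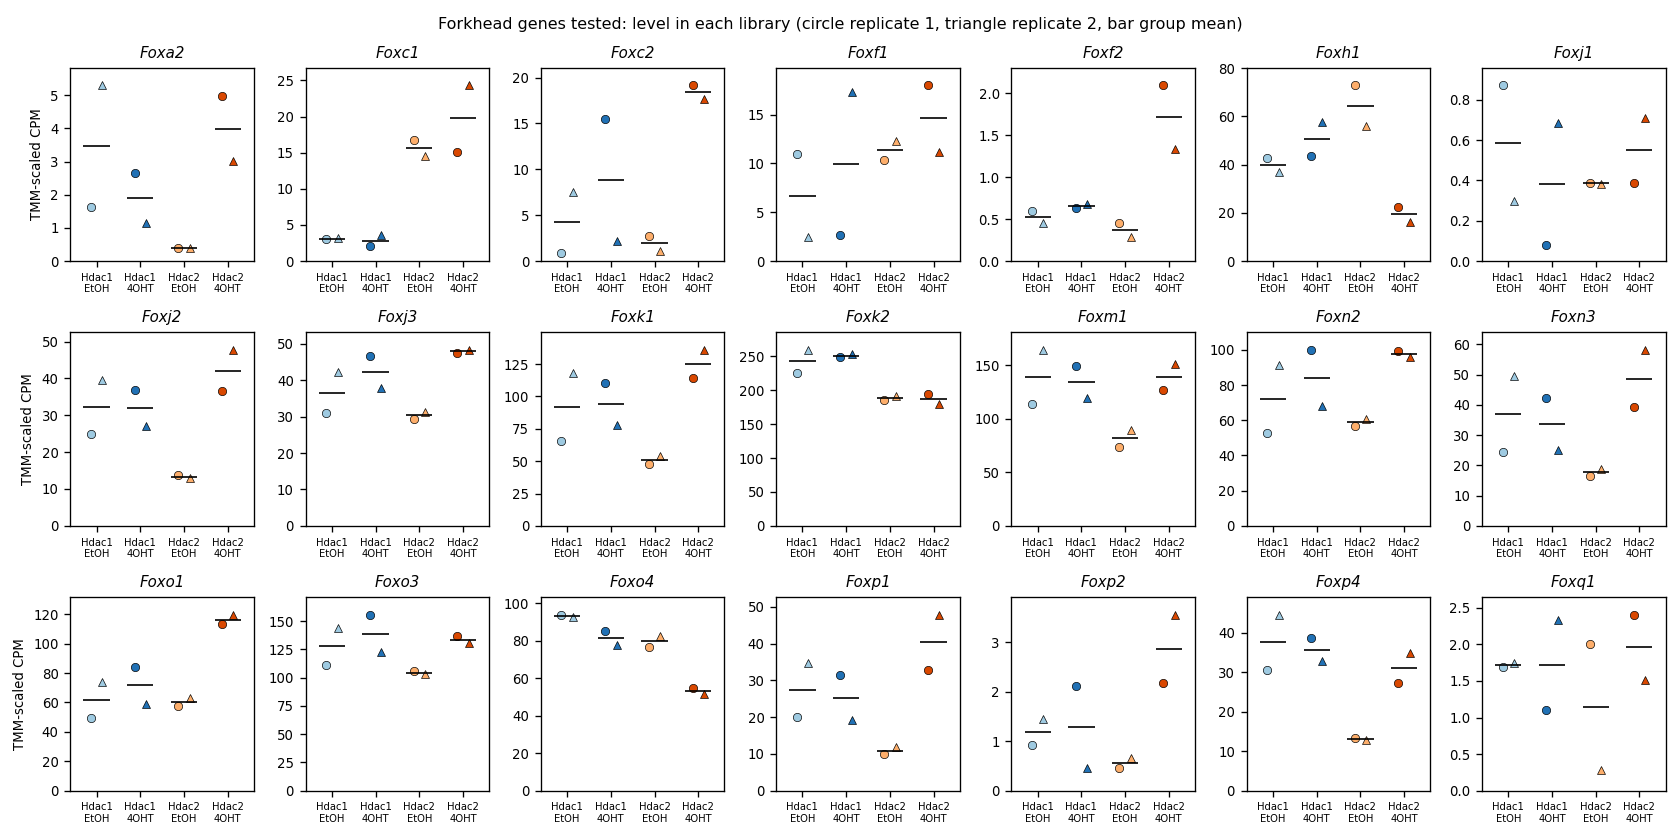
Level of each of the 21 tested forkhead genes in every library, as TMM-scaled CPM on a linear axis from 0, with 1 panel per gene and the 4 groups along the x axis. Circles are replicate 1, triangles replicate 2 and bars the mean of the 2. In Foxa2, Foxk1, Foxp1 and Foxj2 the Hdac2 EtOH pair lies low and the Hdac2 4OHT pair high, whereas Foxh1 and Foxo4 show the opposite order. In the Hdac1 line the EtOH and 4OHT libraries overlap for 18 of the 21 genes.

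In the Hdac2 lox/lox line, 4OHT libraries held more RNA of most tested forkhead genes. Of the 21, 11 rose and 2 fell at an adjusted p under 0.05 (quasi-likelihood test of edgeR, p-values adjusted by Benjamini-Hochberg over all genes tested). That is 61.9% of the members tested, where 36.1% of all genes tested were called, 18.9% as higher and 17.2% as lower. The median log2 fold change of the members was 0.77 and that of all genes -0.02. Foxa2, Foxp2, Foxf2, Foxp1, Foxj2, Foxn3, Foxk1 and Foxp4 rose at least 2-fold, Foxo1, Foxm1 and Foxj3 rose by less, and Foxh1 and Foxo4 fell. The 4OHT libraries both lay above both EtOH libraries for 14 members and below for 2, in all 16 of 21, where 78.3% of all genes did not overlap (38.6% higher and 39.7% lower). An unadjusted p under 0.05 was found for 15 members, where 49.6% of all genes had one. DESeq2 called 13 members higher and 2 lower, where it called 39.3% of all genes (21.7% higher and 17.6% lower). The count of calls rests on each library of this line: it was 0 without EtOH replicate 1, EtOH replicate 2 or 4OHT replicate 2, and 4 without 4OHT replicate 1, where the lone library of the group is assumed to vary like the other groups. Calls over all genes fell with it, from 5113 to 116, 0, 91 and 826 in that order. All 13 kept their direction in those 4 fits. That is no further support, because the EtOH and 4OHT libraries of these 13 do not overlap.

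The FoxO genes moved in different directions. Foxo1 (chromosome 3, 52268337 to 52350109, mm10), a FoxO factor needed for vascular development, had 57.5 and 63.3 CPM in the EtOH libraries of the Hdac2 line and at 113 and 119.6 CPM in its 4OHT libraries. It rose by 0.95 ± 0.24 on the log2 scale (adjusted p = 0.023, edgeR). Foxo4 (chromosome X, 101254528 to 101260873) stood at 76.7 and 82.6 CPM with EtOH and at 54.8 and 51.6 CPM with 4OHT. It fell by 0.58 ± 0.14 on the log2 scale (adjusted p = 0.021, edgeR), and the groups of both genes were apart. Foxo3, which guards stem cell quiescence in several tissues, stood at 106 and 103 against 137 and 131 CPM, a difference of 0.36 ± 0.19 that missed the threshold (adjusted p = 0.16, edgeR). Foxo6 had 0 to 2 counts per library. The summed level of the FoxO genes per kb lay between 42.6 and 54.7 CPM per kb in the 8 libraries. Its makeup differed: Foxo1 made up 15.6% and 16.4% of the sum in Hdac2 EtOH and 27.9% and 30.1% in Hdac2 4OHT, while Foxo4 made up 51.7% and 53.1% against 33.5% and 32.3%. The ratio of Foxo1 to Foxo4 within a library, on the scale per kb, was 0.301 and 0.308 with EtOH and 0.831 and 0.932 with 4OHT, a 2.89-fold difference of the means. In the Hdac1 line the same ratio was 0.211 and 0.320 with EtOH and 0.397 and 0.305 with 4OHT, so that its groups overlapped. Shares and ratios per kb do not remove the trend of fold change on exon length given below. Foxo1 has 8.665 kb of exons and Foxo4 3.485 kb. With that trend removed the log2 fold changes in the Hdac2 line were smaller, 0.45 for Foxo1 and -0.42 for Foxo4.

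Of the FoxK genes, 1 of 2 was called. Foxk1 (chromosome 5, 142401497 to 142462014), a regulator of autophagy and glycolysis genes that recruits the SIN3A corepressor, stood at 48.0 and 53.8 CPM with EtOH and at 114 and 136 CPM with 4OHT. It rose by 1.30 ± 0.30 on the log2 scale (adjusted p = 0.018, edgeR). Its relative Foxk2 stood at 185 and 192 against 194 and 179.9 CPM, a difference of -0.01 with a 95% interval from -0.35 to 0.33 (adjusted p = 0.96, edgeR). The ratio of Foxk1 to Foxk2 per kb was 0.180 and 0.194 with EtOH and 0.408 and 0.524 with 4OHT. The Hdac1 line had 0.202 and 0.315 with EtOH and 0.307 and 0.213 with 4OHT. With the exon length trend removed the log2 fold changes in the Hdac2 line were 0.91 for Foxk1 and -0.11 for Foxk2.

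The tested FoxP genes, Foxp1, Foxp2 and Foxp4, all rose. Foxp1 (chromosome 6, 98925338 to 99522721), a repressor with roles in lymphoid and heart development, stood at 9.85 and 11.8 CPM with EtOH and at 32.8 and 47.8 CPM with 4OHT. It rose by 1.90 ± 0.36 on the log2 scale (adjusted p = 0.012, edgeR). Foxp4 (chromosome 17, 47867133 to 47924645), which forms dimers with its relatives, stood at 13.3 and 12.8 CPM against 27.3 and 34.8 CPM. Its log2 fold change was 1.25 ± 0.23 (adjusted p = 0.012, edgeR). Foxp2, known for its role in speech and motor circuits, was low, at 0.454 and 0.669 CPM with EtOH and 2.173 and 3.55 CPM with 4OHT, from 7 counts in each EtOH library and 28 and 40 with 4OHT. Its log2 fold change was 2.36 ± 0.74 (adjusted p = 0.041, edgeR), and the call was lost with limma-voom (adjusted p = 0.051), the replicate block (adjusted p = 0.068, edgeR) and the exon length trend removed (adjusted p = 0.15, edgeR). Foxp1 rose more than Foxp4 by its point estimate, and the ratio of the 2 per kb was 0.266 and 0.331 with EtOH and 0.430 and 0.492 with 4OHT. With the exon length trend removed the order reversed, at 0.94 for Foxp1 and 1.19 for Foxp4. Foxp1 has 13.751 kb of exons and Foxp4 4.926 kb, and a ratio per kb does not remove that trend.

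Of the FoxJ and FoxN genes, 3 of 5 tested rose. Foxj2 (chromosome 6, 122819914 to 122845366), a broadly present activator, stood at 13.7 and 12.9 CPM with EtOH and at 36.5 and 47.7 CPM with 4OHT. Its log2 fold change was 1.66 ± 0.28 (adjusted p = 0.0096, edgeR), the second smallest adjusted p of the members. Foxj3 stood at 29.5 and 31.3 against 47.6 and 48.3 CPM, a log2 fold change of 0.66 ± 0.20 (adjusted p = 0.036, edgeR). Foxj1, the master regulator of motile cilia, had 1 to 16 counts per library and did not pass (0.48 ± 0.94, adjusted p = 0.70, edgeR). Foxn3, a repressor of cell cycle checkpoint genes, stood at 16.5 and 18.9 CPM with EtOH and at 39.2 and 58.1 CPM with 4OHT, a log2 fold change of 1.46 ± 0.39 (adjusted p = 0.026, edgeR). Foxn2 stood at 57.0 and 60.5 against 99.5 and 95.8 CPM, with groups apart and an adjusted p of 0.075 (0.73 ± 0.28, edgeR).

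Foxm1 (chromosome 6, 128362967 to 128375893), the forkhead factor of the G2 and M phases, rose in the Hdac2 line. It stood at 73.9 and 90.1 CPM with EtOH and at 127 and 152 CPM with 4OHT, a log2 fold change of 0.77 ± 0.23 (adjusted p = 0.036, edgeR). Foxh1 (chromosome 15, 76668284 to 76669948), the SMAD partner in Nodal signalling and a gene of early mesendoderm, went the other way. It stood at 73.0 and 55.9 CPM with EtOH and at 22.6 and 16.4 CPM with 4OHT, and it fell by 1.73 ± 0.24 on the log2 scale (adjusted p = 0.0084, edgeR), which is 3.31-fold lower. This was the smallest adjusted p of the members. Among forkhead genes per kb, Foxh1 had a mean of 47.2 ± 8.87 CPM per kb (SD, n = 2) in Hdac2 EtOH, above the 35.8 ± 0.959 of Foxk2. In Hdac2 4OHT it had 14.3 ± 3.23 against 35.6 ± 1.96 for Foxk2 (SD, n = 2).

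Foxa2 (chromosome 2, 148042877 to 148046969), the pioneer factor of endoderm and notochord, had the largest log2 fold change of the members, from a low level. It stood at 0.389 and 0.382 CPM with EtOH (6 and 4 counts) and at 4.97 and 3.02 CPM with 4OHT (64 and 34 counts). Its log2 fold change was 3.35 ± 0.77 (adjusted p = 0.018, edgeR), with a 95% interval from 1.56 to 5.14. Foxa1 and Foxa3 stayed under the filter. Of 14 endoderm markers, 5 were tested and 3 rose, where 18.9% of all genes tested did. The list includes Foxa2 itself, which is among the 3 that rose, so this count is no separate evidence. Apoa2 and Cer1 had 0 counts in every library. The list summed to 57.4 and 58.3 CPM with EtOH and to 226 and 239 CPM with 4OHT. Most of that sum is Sox17, which endothelium also expresses (47.6 and 52.8 against 211 and 226 CPM). Without Sox17, Foxa1 and Foxa2 the other 11 markers summed to 4.97 to 9.31 CPM in the 8 libraries, at 9.07 and 4.97 with Hdac2 EtOH and 9.31 and 8.71 with Hdac2 4OHT.

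The FoxC and FoxF genes are the members best known from endothelium and mesenchyme, and of the 4 only Foxf2 was called in the Hdac2 line. Foxc2 (chromosome 8, 121116171 to 121118895), a factor of arterial and lymphatic vessels, stood at 2.72 and 1.15 CPM in Hdac2 EtOH and at 19.2 and 17.7 CPM in Hdac2 4OHT. Its log2 fold change of 3.20 (95% interval from 0.62 to 5.79) missed the threshold (adjusted p = 0.056, edgeR), although the groups were apart. In the Hdac1 line Foxc2 stood at 0.873 and 7.55 CPM with EtOH and at 15.5 and 2.16 CPM with 4OHT, so that replicates of one group differed more than the groups. Foxc1, its closest relative, stood at 16.7 and 14.6 against 15.1 and 24.3 CPM in the Hdac2 line (0.33 ± 0.31, adjusted p = 0.42, edgeR), with overlapping groups. Foxf1, a hedgehog-responsive factor of lateral mesoderm, stood at 10.4 and 12.3 against 18.0 and 11.2 CPM there (0.37 ± 0.84, adjusted p = 0.75, edgeR). Its Hdac1 line values were 10.9 and 2.45 CPM with EtOH and 2.67 and 17.3 CPM with 4OHT, high in the libraries where Foxc2 was low. Foxf2, a factor of pericytes and gut mesenchyme, was low, at 0.454 and 0.287 CPM with EtOH (7 and 3 counts) and 2.10 and 1.33 CPM with 4OHT (27 and 15 counts). It rose by 2.15 ± 0.51 on the log2 scale (adjusted p = 0.019, edgeR). Foxq1 had 3 to 41 counts per library and overlapping groups (adjusted p = 0.47, edgeR).

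These genes lie in clusters, within which differences between neighbours were not tested. On chromosome 8, Foxf1, Foxc2 and Foxl1 follow each other on one strand with gaps of 28.0 kb and 9.0 kb. Within this cluster the Hdac2 line gave log2 fold changes of 0.37 for Foxf1 and 3.20 for Foxc2, neither called, and Foxl1 had 1 count in all. The ratio of Foxc2 to Foxf1 per kb was 0.233 and 0.0824 with EtOH and 0.944 and 1.40 with 4OHT. For the Hdac1 line it was 0.0709 and 2.73 with EtOH and 5.13 and 0.111 with 4OHT, a wide spread within each group. On chromosome 13, Foxq1, Foxf2 and Foxc1 follow each other with gaps of 64.8 kb and 175.3 kb, and Foxf2 was called while Foxq1 and Foxc1 were not. Foxd2 and Foxe3 on chromosome 4 are 16.3 kb apart, and neither was tested.

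**Figure D2:**
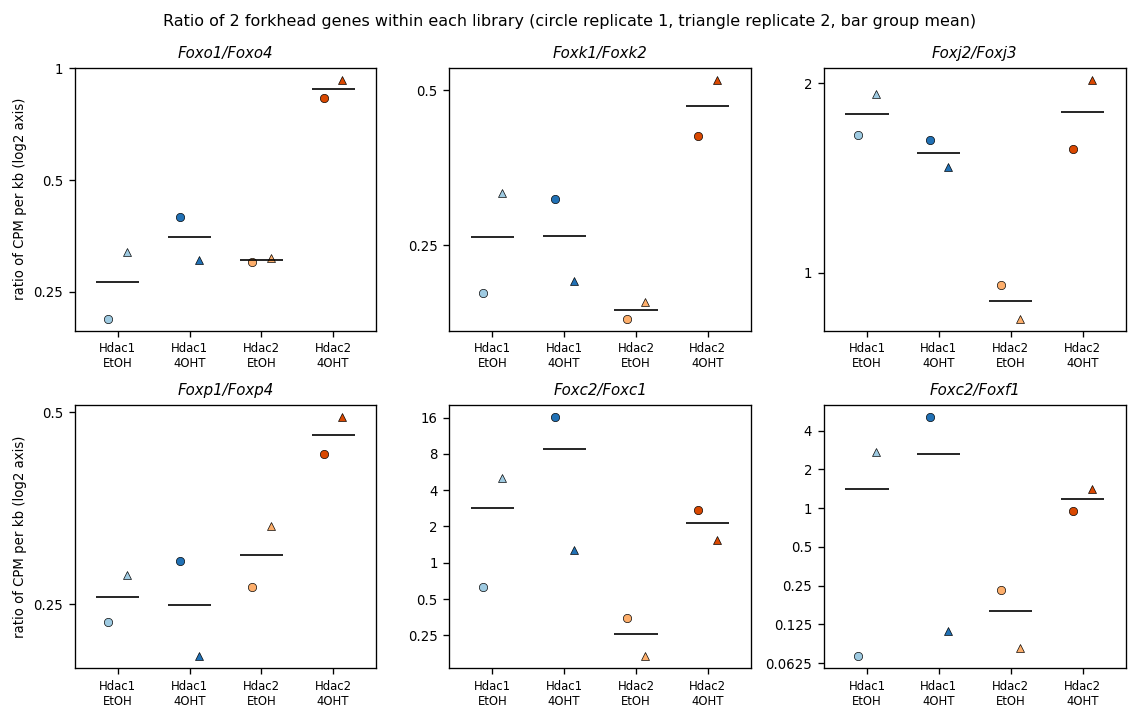
Ratio of 2 related or neighbouring forkhead genes within each library, computed from CPM per kb of exon and drawn on a log2 axis, with circles for replicate 1, triangles for replicate 2 and bars for the group mean. In the Hdac2 line the EtOH and 4OHT libraries do not overlap in any of the 6 ratios shown (0.301 and 0.308 against 0.831 and 0.932 for Foxo1 to Foxo4). In the Hdac1 line they overlap in all but Foxj2 to Foxj3. Of single genes tested, 78.3% did not overlap in the Hdac2 line and 31.2% in the Hdac1 line, and no such share is given for ratios. Among ratios not drawn, Foxn3 to Foxn2 was apart in both lines, and Foxo1 to Foxo3 and Foxf2 to Foxf1 only in the Hdac2 line. The ratios keep any trend on exon length.

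In the Hdac1 lox/lox line no forkhead gene was called between 4OHT and EtOH, where 0% of all genes tested were called. With edgeR 0 of the 21 had an unadjusted p under 0.05, where 6.68% of all genes did, and DESeq2 and limma-voom also called 0. The median log2 fold change of the members was 0.03, between -0.89 for Foxa2 and 1.04 for Foxc2. The groups of 3 members did not overlap, where 31.2% of all genes did not (15.8% higher and 15.4% lower). Foxh1 was higher (42.8 and 37.2 CPM with EtOH, 43.6 and 57.7 with 4OHT), as was Foxf2 (0.600 and 0.450 against 0.628 and 0.683 CPM), and Foxo4 was lower (93.9 and 92.6 against 85.1 and 77.7 CPM). For several members EtOH replicate 2 and 4OHT replicate 1 were the high libraries of this line. Foxk1 stood at 65.9 and 118 CPM with EtOH and 110.3 and 77.9 with 4OHT, Foxo1 at 49.4 and 73.7 against 84.1 and 59.0, and Foxn3 at 24.3 and 49.4 against 42.2 and 25.1. For these 3 genes the replicates of a group lay further apart than the group means.

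The difference between the lines in the 4OHT effect was tested as an interaction. With edgeR 0 of the 21 members passed, where 0.0282% of all genes did (0.0141% higher and 0.0141% lower), and 9 had an unadjusted p under 0.05, where 28% of all genes did. Foxh1 came closest, with a difference of -2.07 ± 0.33 on the log2 scale (adjusted p = 0.064), followed by Foxj2 at 1.67 ± 0.38 (adjusted p = 0.080) and Foxa2 at 4.24 ± 1.00 (adjusted p = 0.081). DESeq2 called 7 members (Foxa2, Foxk1, Foxp1, Foxj2, Foxn3, Foxp4 and Foxh1), with 6 of them higher and 1 lower, where it called 12.4% of all genes (8.61% higher and 3.84% lower). Limma-voom called 0. With no filter on low counts edgeR called 4 members higher and 1 lower, where 5.5% of all genes were called (3.58% higher and 1.93% lower). Without Hdac1 lox/lox EtOH replicate 1, edgeR called 9 of the members and 3740 of all genes, against 4 of all genes with it. A call in the Hdac2 line and none in the Hdac1 line is therefore not shown by the main test to be a difference between the lines.

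**Figure D3:**
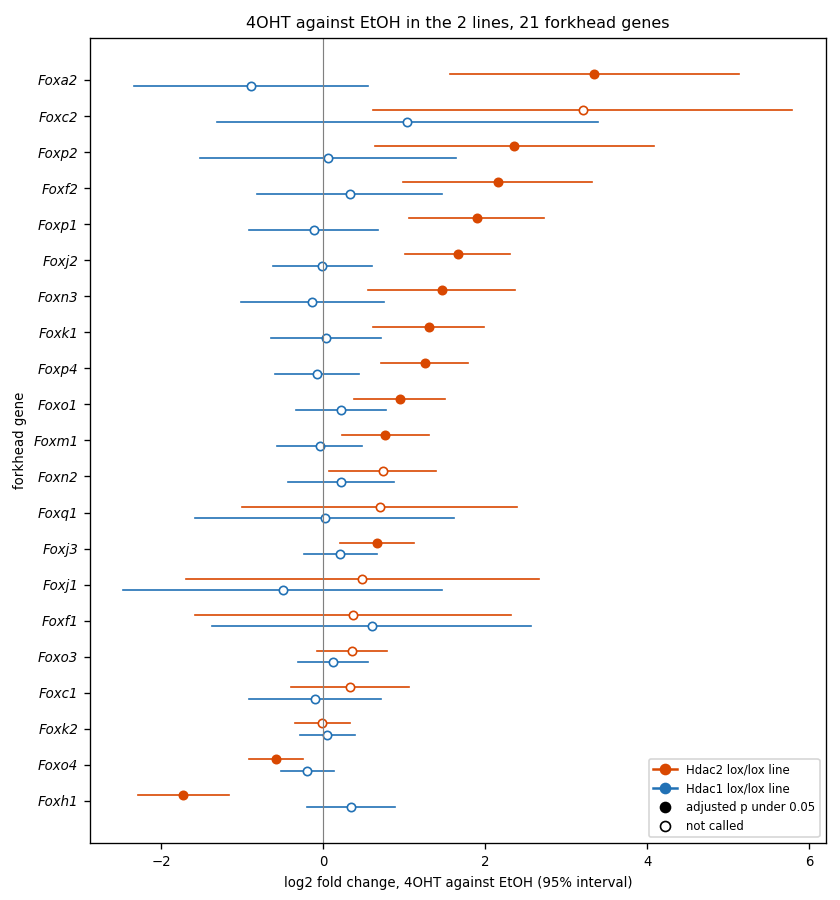
Log2 fold change of 4OHT against EtOH for the 21 tested forkhead genes (y axis) in the Hdac2 line (orange) and the Hdac1 line (blue), with lines for the 95% interval and filled points for an adjusted p under 0.05. In the Hdac2 line 11 filled points lie above 0 and 2 below, and all 21 points of the Hdac1 line are open.

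The lines also differed with EtOH alone. Of the 21 members, 1 was higher and 3 were lower in Hdac2 EtOH than in Hdac1 EtOH, where 9.33% of all genes tested were called (2.91% higher and 6.42% lower). The groups of 2 members did not overlap with Hdac2 higher and those of 11 with Hdac2 lower, in all 13, where 60.1% of all genes did not overlap (29.9% higher and 30.3% lower). An unadjusted p under 0.05 was found for 10 members and 33% of all genes. Foxc1 was higher, at 16.7 and 14.6 CPM against 3.001 and 3.20 CPM, by 2.33 ± 0.34 on the log2 scale (adjusted p = 0.017, edgeR). Foxp4 was lower, at 13.3 and 12.8 CPM against 30.7 and 44.6 CPM (-1.53 ± 0.23, adjusted p = 0.020, edgeR). Foxj2 was lower too, at 13.7 and 12.9 against 24.9 and 39.5 CPM (-1.27 ± 0.27, adjusted p = 0.035, edgeR). Foxa2 was lower at 0.389 and 0.382 against 1.64 and 5.30 CPM (-3.15 ± 0.76, adjusted p = 0.045, edgeR). The count was 0 without either Hdac2 EtOH library, 1 without Hdac1 EtOH replicate 2, 2 without either Hdac2 4OHT library and 8 without Hdac1 EtOH replicate 1. Calls over all genes went from 1323 to 1 and 4, 178, 175 and 3871 in the same fits. Foxp4, Foxj2 and Foxa2 are thus genes that were low in Hdac2 EtOH against both other sets of libraries. This comparison shares the Hdac2 EtOH libraries with the 4OHT comparison of that line.

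With 4OHT, 1 member was higher and 2 were lower in the Hdac2 line than in the Hdac1 line, where 8.02% of all genes were called (3.75% higher and 4.27% lower). The groups of 9 members did not overlap with Hdac2 higher and those of 3 with Hdac2 lower, where 62.3% of all genes did not overlap (30.7% higher and 31.6% lower), and 6 members and 27.6% of all genes had an unadjusted p under 0.05. Foxc1 was again higher, at 15.1 and 24.3 CPM against 2.04 and 3.64 CPM, by 2.77 ± 0.35 on the log2 scale (adjusted p = 0.015, edgeR). All 4 libraries of the Hdac2 line thus held 14.6 to 24.3 CPM of Foxc1 and all 4 of the Hdac1 line 2.04 to 3.64 CPM. Foxh1 was lower in the Hdac2 line by 1.38 ± 0.24 (log2 fold change -1.38, adjusted p = 0.024, edgeR). Foxo4 was lower with a log2 fold change of -0.61 ± 0.14 (adjusted p = 0.043, edgeR). The count was 0 without any 1 of the 4OHT libraries of either line, where 0 to 37 of all genes were called, against 1137 with every library. Line and any culture batch of these libraries cannot be told apart.

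RefSeq promoter windows (GRCm38.p6) were held for 28 of the 44 genes and 11 of the 21 tested. Foxc2, Foxf1, Foxh1, Foxj1, Foxk1, Foxm1, Foxn2, Foxo4, Foxp2 and Foxq1 had no entry. The 3 windows below belong to Foxc1, which differed between the lines with either agent, and to Foxo1 and Foxp4, which rose in the Hdac2 line. Each ends just before the first annotated exon, and capitals mark CCAAT boxes, read here on the other strand as ATTGG.

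Foxc1, chr13:31806396-31806632 (+): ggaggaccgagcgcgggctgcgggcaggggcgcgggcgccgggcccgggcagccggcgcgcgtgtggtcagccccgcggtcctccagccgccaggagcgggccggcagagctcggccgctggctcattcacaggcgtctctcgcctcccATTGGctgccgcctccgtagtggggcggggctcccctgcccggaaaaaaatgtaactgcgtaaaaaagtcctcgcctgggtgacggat
Foxo1, chr3:52268087-52268335 (+): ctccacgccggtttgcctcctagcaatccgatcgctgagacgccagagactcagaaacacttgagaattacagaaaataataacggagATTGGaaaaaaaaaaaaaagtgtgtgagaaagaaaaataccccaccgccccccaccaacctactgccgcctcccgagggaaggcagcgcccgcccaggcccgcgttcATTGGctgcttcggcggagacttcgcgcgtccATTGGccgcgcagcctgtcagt
Foxp4, chr17:47924646-47924882 (-): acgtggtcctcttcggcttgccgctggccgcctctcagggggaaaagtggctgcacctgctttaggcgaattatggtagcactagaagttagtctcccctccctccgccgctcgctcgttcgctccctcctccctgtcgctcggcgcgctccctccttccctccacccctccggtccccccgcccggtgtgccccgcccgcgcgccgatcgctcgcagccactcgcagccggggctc

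Foxc1 holds 1 CCAAT box in this stretch, Foxo1 holds 3 and Foxp4 holds 0. Over the 250 bases before each start, CCAAT on either strand was found in 5 of the 11 tested members and in 37.49% of all genes of the table. The forkhead core TGTTTAC was found in 0 of the 11 and in 3.54% of all genes. The letters AATCCACA of a FoxH1 motif (0.86% of all genes), CCGGAAGT of an ETS motif (3.23%) and TTTCCCGC of an E2F motif (1.03%) were also found in 0 of the 11. Windows of tested members had a median GC content of 69.6%, against 52.4% over all windows, and a median of 21 CG pairs against 6. A match is a description of letters and marks no bound site.

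Exon length moved with the fold changes of the Hdac2 line. Over 14122 genes, Spearman's rho between the log2 fold change and exon length was 0.432 (a description across genes, which share libraries and are not independent). Genes called higher had a median of 6.79 kb of exons, genes called lower 2.99 kb and all genes 4.18 kb. The forkhead genes follow the same order: the 11 that rose had a median of 7.58 kb, and Foxh1 and Foxo4, which fell, have 1.365 and 3.485 kb. Across the 21 members alone rho was 0.184. Of 5 bins with like numbers of genes, the longest runs from 7.375 kb up, and in it 42.1% of all genes rose and 6 of 7 members did (Foxk1, Foxo1, Foxj3, Foxn3, Foxp1 and Foxp2, not Foxo3). In the shortest bin 27.2% of all genes fell, as did the single member there, Foxh1. The corresponding rho was 0.059 in the Hdac1 line and -0.352 between the lines with EtOH.

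With each library's trend on exon length removed, an alternative added after the data were seen, 11 members were called in the Hdac2 line, 9 higher and 2 lower, where 34.5% of all genes were called (17.4% higher and 17.1% lower). Of the 13 members called in the main test 10 were kept. Foxj3 went to -0.061 (adjusted p = 0.73, edgeR), Foxp2 to 1.24 (adjusted p = 0.15, edgeR) and Foxn3 to 0.68 (adjusted p = 0.061, edgeR), and Foxc2 was gained at 3.48 (adjusted p = 0.049, edgeR). Foxo1 moved to 0.45 (adjusted p = 0.048, edgeR) and Foxp1 to 0.94 (adjusted p = 0.013, edgeR), each less than its main value by over 1.5 times. Foxh1 (-1.27), Foxj2 (1.54), Foxp4 (1.19), Foxf2 (2.47) and Foxa2 (3.66) stayed called, and the exons of these 5 genes run from 1.365 to 5.346 kb. Foxk1 (0.91), Foxm1 (0.60) and Foxo4 (-0.42) stayed called too, with 7.584, 5.754 and 3.485 kb of exons. For the difference between the lines 1 member was called under this alternative (Foxh1 at -1.63, adjusted p = 0.039, edgeR), where 1.22% of all genes were called (0.892% higher and 0.326% lower). Whether the length trend has to do with RNA quality was not tested.

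**Figure D4:**
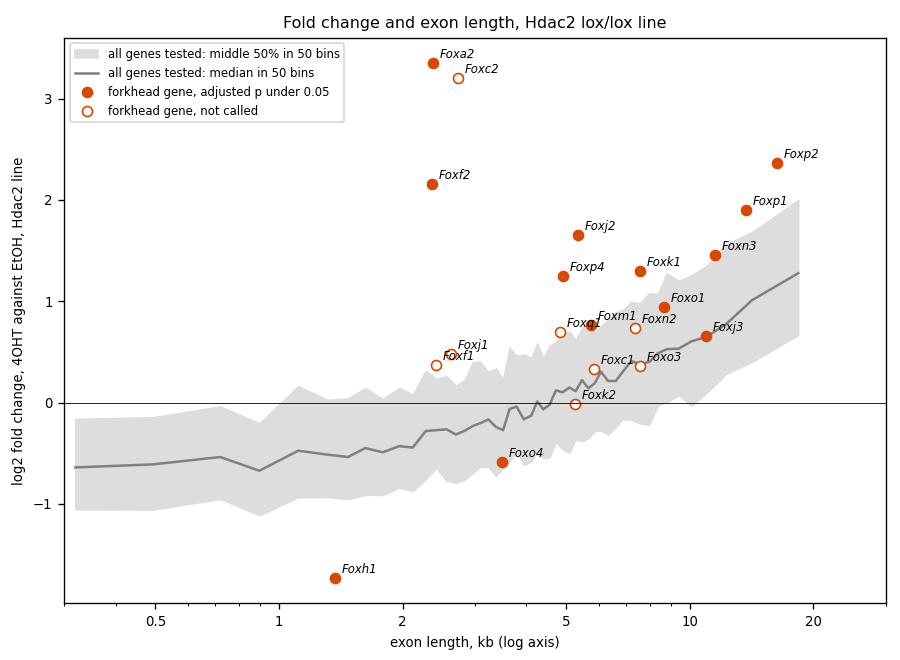
Log2 fold change of 4OHT against EtOH in the Hdac2 line (y axis) against exon length in kb (x axis, log scale). The grey line and band give the median and the middle 50% of all genes tested in 50 bins of length. Orange points are forkhead genes, filled where called. Foxa2, Foxc2, Foxf2, Foxj2, Foxp4, Foxk1, Foxp1 and Foxp2 are among those above the band, Foxh1 lies below it, and Foxj3 on the median line.

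Genes upstream and downstream of the forkhead factors were read from lists chosen with earlier results of these data known, so their counts are descriptions. Of 22 genes of the PI3K and AKT pathway and other FoxO regulators, 7 rose and 0 fell in the Hdac2 line, with a median log2 fold change of 0.67, where 36.1% of all genes were called and their median was -0.02. Igf1r, a receptor that activates AKT, went from 35.1 ± 6.51 CPM in EtOH to 119 ± 1.43 CPM in 4OHT libraries (SD, n = 2) and rose by 1.76 ± 0.25 (adjusted p = 0.0085, edgeR). Ep300 (1.64 ± 0.29, adjusted p = 0.011, edgeR) and Crebbp (1.98 ± 0.40, adjusted p = 0.013, edgeR), acetyltransferases that modify FoxO proteins, rose too. With the length trend removed this list had a median of 0.10, with 6 higher and 1 lower, where 17.4% and 17.1% of all genes were. Igf1r then went to 0.62, Ep300 to 0.65 and Crebbp to 1.03. These 3 genes have 13.54 to 16.791 kb of exons. Of 25 FoxO target genes tested, 7 rose and 6 fell, with a median of 0.36, where 18.9% of all genes rose and 17.2% fell. With the length trend removed 4 rose and 4 fell, with a median of 0.13, where 17.4% and 17.1% of all genes did. The vascular ligand gene Angpt2 rose from 1.38 ± 0.608 to 8.35 ± 1.38 CPM (SD, n = 2), a log2 fold change of 2.55 ± 0.42 (adjusted p = 0.0091, edgeR). Pdk4 also rose (2.40 ± 0.43, adjusted p = 0.011, edgeR), while Sod2, the mitochondrial superoxide dismutase, fell by 0.88 ± 0.17 on the log2 scale (adjusted p = 0.013, edgeR), with a value of -1.51 once the length trend was removed.

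FoxM1 target genes and Foxm1 itself went different ways in the Hdac2 line. Foxm1 rose, and of 20 target genes 12 fell and 2 rose, with a median log2 fold change of -0.79. Over all genes 17.2% fell and 18.9% rose. Ccnb1, the cyclin of mitotic entry, went from 65.2 ± 4.72 CPM in EtOH to 29.99 ± 2.70 CPM in 4OHT libraries (SD, n = 2) and fell by 1.12 ± 0.17 on the log2 scale (adjusted p = 0.0087, edgeR). Aurkb, a kinase of the chromosomal passenger complex, stood at 113 ± 12.4 and 53.3 ± 1.75 CPM (SD, n = 2) and fell by 1.08 ± 0.18 (adjusted p = 0.0089, edgeR). The kinetochore motor gene Cenpe rose, from 30.8 ± 1.18 to 140.4 ± 30.01 CPM (SD, n = 2), by 2.19 ± 0.27 (adjusted p = 0.0069, edgeR). Cenpe has 8.62 kb of exons. With the length trend removed, 11 of the targets fell and 2 rose, with a median of -0.47, where 17.1% and 17.4% of all genes did. Foxm1 stayed called at 0.60 (adjusted p = 0.037, edgeR) under that alternative.

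Of 17 endothelial genes with FoxC or combined FOX and ETS elements, 9 rose and 1 fell in the Hdac2 line. Their median was 0.76, and over all genes 18.9% rose and 17.2% fell. With the length trend removed 9 rose and 2 fell with a median of 0.71, where 17.4% and 17.1% of all genes did. Cdh5, the endothelial cadherin, went from 765 ± 29.2 CPM in EtOH to 2684 ± 484 CPM in 4OHT libraries (SD, n = 2) and rose by 1.81 ± 0.31 (adjusted p = 0.0098, edgeR). The VEGF receptor gene Flt1 rose by 1.75 ± 0.31 (adjusted p = 0.011, edgeR), and by 0.82 with the length trend removed. Tal1, the regulator of blood and endothelial fate, fell by 1.18 ± 0.18 on the log2 scale (adjusted p = 0.0087, edgeR). Of 10 FoxF1 and mesenchyme partners tested, 2 rose, where 18.9% of all genes did. They were Hand2, by 3.47 ± 0.29 (adjusted p = 0.0041, edgeR), and Tbx4, by 2.26 ± 0.49 (adjusted p = 0.015, edgeR). Hand2, a factor of heart and limb mesoderm, was the only gene of the lists for which the difference between the lines passed with edgeR (4.63 ± 0.38, adjusted p = 0.019). Its level was 102 ± 5.93 CPM in Hdac1 EtOH, 45.6 ± 9.75 in Hdac1 4OHT, 9.39 ± 3.47 in Hdac2 EtOH and 103 ± 10.4 in Hdac2 4OHT (SD, n = 2).

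Of 12 partners of FoxP and FoxK tested, 4 rose and 1 fell, where 18.9% of all genes rose and 17.2% fell. Sap130 of the SIN3 complex rose by 0.90 ± 0.16 (adjusted p = 0.011, edgeR), a call lost with the length trend removed (0.36, adjusted p = 0.091, edgeR). Suds3 of the same complex fell by 0.65 ± 0.17 on the log2 scale (adjusted p = 0.023, edgeR), with a value of -1.40 under that alternative. With the length trend removed 1 rose and 1 fell, where 17.4% and 17.1% of all genes did. Of 15 ciliary genes under FoxJ1 and FoxN4 only 2 were tested, and neither was called. In the Hdac1 line edgeR called 0 genes of each list, where 0% of all genes were called. An unadjusted p under 0.05 was found there for 6.68% of all genes. In the lists 1 PI3K and AKT gene, 4 FoxO targets, 0 FoxM1 targets and 3 endothelial genes had one. So did 2 FoxF1 partners, 0 ciliary genes and 1 FoxP or FoxK partner.

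Markers of other cell types moved with the same comparison, and their part in the forkhead results was not tested. Over all genes tested 18.9% rose and 17.2% fell in the Hdac2 line. In the Hdac2 line 8 of 12 endothelial markers rose and 0 fell, with sums of 2961 and 3132 CPM with EtOH and 6211 and 8184 CPM with 4OHT. Of 12 erythroid and blood markers 1 rose and 7 fell, with sums of 1988 and 1932 against 494 and 366 CPM. Of 12 mesenchyme and smooth muscle markers 6 rose and 0 fell, with sums of 2220 and 1586 against 6638 and 4401 CPM. Most of that sum is Acta2, at 1524 and 1173 CPM with EtOH and 4740 and 3134 CPM with 4OHT. Of 8 cardiomyocyte markers tested 3 rose and 1 fell, with sums from 25.3 to 48.4 CPM in that line. Pluripotency markers summed to 21.3 to 32.2 CPM in that line, with 0 of 4 tested higher and 1 lower. Most of that sum is Klf4, at 28.3 and 17.1 CPM with EtOH and 29.6 and 30.5 CPM with 4OHT. Neural markers summed to 198 and 121 CPM with EtOH and 552 and 637 CPM with 4OHT, with 1 of 4 tested higher. Most of that sum is Nes, at 118 and 85.1 CPM with EtOH and 459 and 599 CPM with 4OHT. Hdac1 line libraries had endothelial sums of 3748 to 5461 CPM with EtOH and 4564 to 5937 CPM with 4OHT, and none of these markers was called there with edgeR.

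Some tested members overlap or adjoin another gene with counts. Foxj3 overlaps AA415398 on the opposite strand over 2526 bases (a mean of 36.0 counts against 576 for Foxj3), and Foxn3 overlaps Gm19898 over 251 bases (32.4 against 503 counts). Foxq1 overlaps A530084C06Rik, with 0.108 times its counts. The start of Foxm1 lies 56 bases from that of Rhno1 on the opposite strand (761 counts against 1851). Fendrr, the RNA gene next to Foxf1, had a mean of 0.75 counts. The library kit marks strand, but the sources used here do not say whether the counting used it, so reads of overlapping genes could be split either way.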

How the data were processed

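RNA-seq gene counts of 8 libraries were analysed, 2 in each of 4 groups taken from the sample titles. The values as deposited are raw counts of reads for each gene, whole numbers without normalization. Per the labels' protocols, total RNA went into an Agilent strand-specific kit. Per the submitters' processing notes, the tools included edgeR 3.8.5, Bowtie2 2.2.1, R 3.1.0, bcl2fastq 2.17.1.14 and SAMtools 0.1.19 (roles are not listed) and the build was mm10. The sources used here do not name the counting program or annotation.

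Genes were filtered with filterByExpr (minimum count 10, minimum total 15), scaled by TMM and fitted in edgeR 4.0.16 (R 4.3.3) with a robust quasi-likelihood model of group means over all 8 libraries. Benjamini-Hochberg adjustment was applied at 0.05 over 14179 genes within each of 5 comparisons. Standard errors come from the F statistic. Limits from 3 counts cover counting error only, because amplified reads that carry no molecular identifier are not independent. Exon lengths are the union of GENCODE M21 exons, which held all 44 members. The scripts were tested on simulated data.

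The members, gene lists and marker lists were chosen with earlier results of these data known. Every forkhead gene may be named, with neighbours of members. From each list the 3 genes of smallest adjusted p among those called in the Hdac2 line may be named. Apoa2, Cer1, Sox17, Nes, Klf4 and Acta2 were named after their values were seen. Some genes and sequences are not reported here. Alternatives were RLE scaling, no scaling, DESeq2 1.42.0, limma-voom 3.58.1, no filter, a replicate block, the line alone, and each library left out. Removal of the exon length or GC trend, a crossed block and all alternatives of the gene lists were added after seeing the data.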

Additional observations from a re-analysis of the deposited data

How the results depend on the processing

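For the 13 forkhead genes called in the Hdac2 line, 221 values were recomputed under 17 alternatives: 165 stayed called in the same direction, 55 kept the direction and lost the call, and 1 reversed, Foxj3 at -0.061 with the exon length trend removed. Apart from fits that left out a library, 8 of 117 lost the call, Foxj3 above among them. Leaving out 1 library in turn, the number of members called was 0 to 15 in the Hdac2 line, 0 in every such fit of the Hdac1 line, 0 to 9 for the difference between lines, 0 to 8 for the lines with EtOH and 0 to 4 for the lines with 4OHT. Over all genes the same fits called 0 to 6422, 0, 0 to 3740, 1 to 3871 and 0 to 2276, in that order. For the difference between lines the count was 7 with DESeq2, 5 without a low-count filter and 1 with the exon length trend removed. Over all genes 1765, 1187 and 172 were called in these fits, against 4 in the main fit. For the lines with EtOH it was 8 with DESeq2 and 7 with no filter, where 2776 and 2064 of all genes were called, against 1323 in the main fit. With the replicate number as a block, 10 members and 3624 of all genes were called in the Hdac2 line. These counts were 16 and 8379 when only that line was fitted. In the Hdac1 line 0 members and 0 of all genes were called. Between the lines 2 members and 184 of all genes were called with EtOH, and 1 and 223 with 4OHT. The samples share only a number: deviations of same-numbered libraries correlated at -0.688 in the Hdac1 line and at 0.264 in the Hdac2 line, and every other pair of groups lay between -0.123 and 0.165. With the numbers of the Hdac1 line crossed, 1 member and 945 of all genes were called there. In the gene lists, fitting the Hdac2 line alone gave 12 calls among PI3K and AKT genes and 4 among FoxF1 partners. That fit called 7272 of all genes. The replicate block gave 8 among FoxO targets and 3 among FoxP and FoxK partners, with 3624 of all genes called. The length trend removed gave 8 and 2, with 4873 of all genes called. Leaving out 1 library in turn gave 0 to 11 for PI3K and AKT genes, 0 to 13 for FoxO targets, 0 to 14 for FoxM1 targets, 0 to 11 for endothelial genes, 0 to 3 for FoxF1 partners, 0 to 5 for FoxP and FoxK partners and 0 for ciliary genes. The cause of these changes was not tested, and the fits that left out a library also had fewer libraries. With 2 libraries per group and as few as 3 to 7 counts of Foxa2, Foxf2 and Foxp2 in a library, the size of their changes is imprecise.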
